A study of Mus musculus with 6 samples.

Results

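The lymphatic and scavenger endothelial genes are 7 genes that mark endothelium outside the ordinary blood capillary: the scavenger receptors Stab1 and Stab2, the hyaluronan receptor Lyve1, and the lymphatic genes Prox1, Pdpn, Reln and Mmrn1. They were chosen by name, out of 18194 genes that the array's annotation names singly, and each is read from the probe set with the highest mean over the 6 arrays. The values are array intensities of lung endothelial cells from mice, which line the vessels of the lung. The cells were selected on endothelial surface markers and kept at 0.5% oxygen for 16 h. All groups share low oxygen, and without a group at another oxygen level the response to it cannot be read. The knockout arrays (n = 3) came from cells labelled Hif-2a knockout, from mice with VE-Cadherin-Cre and the genotype HIF-2a floxed/floxed, in which an endothelial promoter drives the recombinase that deletes the gene of the oxygen-sensitive transcription factor HIF-2α. The control arrays (n = 3) are labelled in 3 ways that do not match: wild type control, VE-Cadherin-Cre HIF-2a floxed/WT, and Hif-2a floxed/floxed. The labels used here give no age of the mice and do not state if the replicates were different cultures or animals. The p-values therefore speak only of array-to-array spread, which may be technical.

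Stabilins are large transmembrane receptors by which sinusoidal endothelium, above all in liver, spleen and lymph node, takes up modified lipoproteins, collagen fragments and, through stabilin-2, hyaluronan from the circulation. LYVE1 is a related hyaluronan-binding surface protein of lymphatic vessels, of sinusoids and of some tissue macrophages, and is also found on lung blood endothelium. PROX1 is the transcription factor that sets and keeps lymphatic fate, podoplanin (Pdpn) is the lymphatic surface ligand of the platelet receptor CLEC-2, and reelin (Reln) and multimerin 1 (Mmrn1) are proteins that lymphatic endothelial cells secrete.

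The 7 genes fell into 3 with detected signal and 4 without. Stab1, Stab2 and Lyve1 were over a signal of 16 in all 6 arrays, the level below which a probe set was taken to lie at the floor of this processing. Prox1, Pdpn, Reln and Mmrn1 were under it in all 6 arrays. The data thus go against the name lymphatic for these cells: the 4 genes that define lymphatic endothelium more narrowly were not detected, and Lyve1 is not specific to it. In the knockout arrays Stab2 fell to 15.2% of the control mean and Stab1 to 68.9%, while Lyve1, at 89.3%, did not pass the test. No member was higher.

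**Figure D1:**
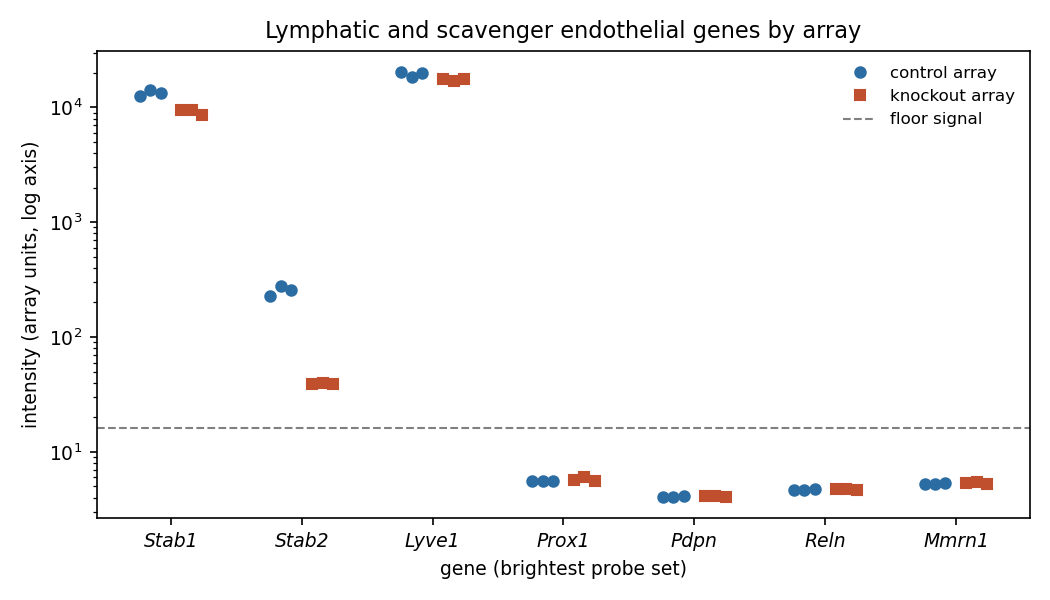
Intensity of the brightest probe set of each of the 7 genes (log axis, array units) in the 3 control arrays (circles) and the 3 knockout arrays (squares), with the floor signal of 16 as a dashed line. Stab1 and Lyve1 lie far above the line, Stab2 drops from above 230 to below 40 units, and the other 4 genes lie under the line in every array.

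The proximal promoters of the 2 genes that fell are shown because both were called lower and because HIF-2α, the regulator that the labels name as knocked out, is a DNA-binding protein. They run from 250 bases before to 50 after the annotated start, 5′ to 3′ on the gene's strand, and come from RefSeq with build GRCm38.p6: Stab1 at chr14:31168592-31168891 on the minus strand and Stab2 at chr10:87007893-87008192 on the minus strand. Capitals mark the ETS core GGAA and the nuclear receptor motif AGGTCA, each read on both strands, with 0 overlaps between them.
Stab1: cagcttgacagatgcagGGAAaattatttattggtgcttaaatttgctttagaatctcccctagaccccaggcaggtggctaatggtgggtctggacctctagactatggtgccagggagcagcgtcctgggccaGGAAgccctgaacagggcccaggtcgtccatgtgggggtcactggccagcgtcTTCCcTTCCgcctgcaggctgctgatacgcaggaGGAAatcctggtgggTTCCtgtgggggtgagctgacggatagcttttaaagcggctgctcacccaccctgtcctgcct
Stab2: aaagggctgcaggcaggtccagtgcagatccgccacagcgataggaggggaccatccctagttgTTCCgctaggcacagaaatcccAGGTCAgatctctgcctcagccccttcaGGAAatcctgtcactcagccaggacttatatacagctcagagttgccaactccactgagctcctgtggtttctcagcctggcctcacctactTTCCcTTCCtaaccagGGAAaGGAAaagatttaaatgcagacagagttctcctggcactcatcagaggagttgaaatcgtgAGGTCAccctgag
The core of the HIF binding motif, ACGTG or GCGTG on either strand, had 0 matches in both windows, where 43.8% of 32851 promoter windows of the same length held at least 1. The ETS core had 6 matches in each, a motif that 96% of windows hold. AGGTCA was found 0 times in the Stab1 window and 2 times in that of Stab2, beginning 164 bases before the start and at base 38 after it, both in the form AGGTCA. At least 1 match was held by 16.3% of windows and 2 or more by 1.81%. These are matches of letters in a short window, and no binding was measured. Of the 7 genes, 6 had a promoter in the table, and Lyve1 was the gene without one. Among the members at the floor, the HIF core had 4 matches for Reln, 2 for Pdpn, 1 for Mmrn1 and 0 for Prox1. AGGTCA had 1 match for Pdpn and 0 for Reln, Mmrn1 and Prox1. Whether any of these matches bears on the knockout difference was not tested.

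Depth of an array cannot be counted as reads can, and the number of arrays limits the precision. Array medians ran from 5.52 to 5.66 units, and 41.5% to 42.6% of probe sets were at or over a signal of 16. Controls 1 and 3 stood apart by their closeness: the SD over genes of their log2 difference was 0.14, against 0.31 to 0.68 for the other within-group pairs. The Epas1 probe set, which reads the HIF-2α gene, gave 9549 ± 90.9 units in controls and 9392 ± 469 in knockouts (SD, n = 3; limma adjusted p = 0.753). Where its probes lie relative to the deleted part was not used here, so the genotype rests on the labels. Of 12277 genes tested, 1683 passed (limma, Benjamini-Hochberg adjusted p threshold 0.05), which is 13.7%, with 5.07% lower and 8.63% higher in the knockout arrays. Among the members, 5 were tested and 2 passed, both lower. Stab1, Stab2 and Lyve1 were above the filter's mean signal of 4.94 in both groups, so none of them entered through the control group alone.

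Stab2, which encodes the hyaluronan clearance receptor stabilin-2, showed the widest separation. Its intensity was 230, 281 and 257 units in controls 1 to 3, and 38.7, 39.6 and 38.8 units in knockouts 1 to 3. The knockout arrays were all far below the lowest control array and lay close to each other. A downward separation of any size was shown by 12.8% of all genes tested. The means were 256 ± 25.4 and 39.0 ± 0.497 units (SD, n = 3), a 6.56-fold lower signal in the knockout arrays. On the scale of log2(intensity + 16), which understates changes of dim genes, Stab2 fell by 2.30 ± 0.07 (SE; limma adjusted p = 0.00112). By size it was number 38 of the 623 genes that fell, and by p-value number 14 of all genes tested. Stab2 has 1 probe set, so no other one checks it. Its knockout signal is over the floor of 16 but dim, and what part of it is background was not tested. The small spread of the knockout arrays therefore does not show a precise transcript level.

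Stab1, which encodes stabilin-1, a scavenger and sorting receptor that macrophages also carry, fell by less. It read 12662, 14116 and 13345 units in controls 1 to 3 and 9475, 9579 and 8611 units in knockouts 1 to 3. The groups did not overlap, and the highest knockout array stayed below the lowest control, as for 12.8% of all genes tested. The means were 13375 ± 727 and 9222 ± 531 units (SD, n = 3), and the log2 value fell by 0.54 ± 0.06 (SE; limma adjusted p = 0.0146), number 396 of the 623 genes that fell. Its call ended without control 1 (adjusted p = 0.0572), without control 3 (0.0761) and without knockout 1 (0.0638), and with controls 1 and 3 averaged into 1 sample (0.0642), all from limma, while its log2 difference stayed between -0.57 and -0.49 with each array left out. Stab2 kept its call in each of these fits, with adjusted p up to 0.0165.

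Lyve1, the hyaluronan receptor of lymphatic endothelium, was bright in all arrays and is read by 2 probe sets, which the annotation ties to the same transcript. The brighter one gave 20352, 18470 and 19891 units in controls and 17675, 17021 and 17736 units in knockouts. The other gave 18183, 18353 and 17883 units in controls and 16774, 14000 and 14662 units in knockouts. In both probe sets every knockout array was below every control array, a separation downward that 12.8% of all genes tested showed. The log2 difference was -0.16 ± 0.04 in the brighter probe set (SE; limma adjusted p = 0.082) and -0.26 ± 0.07 in the other (limma adjusted p = 0.111, adjusted over 27022 probe sets, of which 3.19% fell), so neither passed. Without control 2 the brighter one passed at -0.20 (limma adjusted p = 0.0495), and with the spike-in signal as a covariate it was -0.07 (adjusted p = 0.463).

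**Figure D2:**
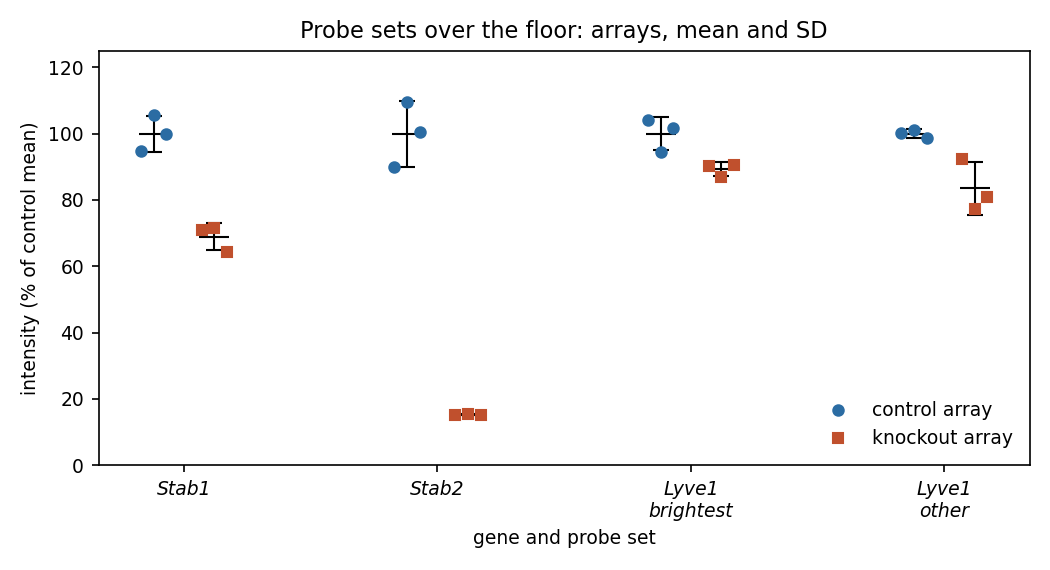
Intensity as a percentage of the control mean for the 4 probe sets over the floor (Stab1, Stab2 and both of Lyve1), with points for arrays and bars for the mean and SD (n = 3). Knockout arrays sit at 64.4% to 71.6% for Stab1, 15.1% to 15.5% for Stab2, 87.0% to 90.6% for the brighter Lyve1 probe set and 77.2% to 92.5% for the other.

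The log2 differences of the 3 detected genes were also set against each other. That of Stab2 minus that of Stab1 was -1.77 ± 0.06 (SE), that of Stab1 minus that of Lyve1 was -0.37 ± 0.11, and that of Stab2 minus that of Lyve1 was -2.14 ± 0.12. An exact two-sided permutation test over arrays gave p = 0.1 for each of the 3 pairs, also after adjustment over them (p = 0.1), the smallest value that this test can give with 3 against 3 arrays. Stab1 and Lyve1 lay at far higher signal than Stab2, and neither stabilin has a further probe set. Whether log2 differences at such unlike signal are comparable in size was not tested.

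**Figure D3:**
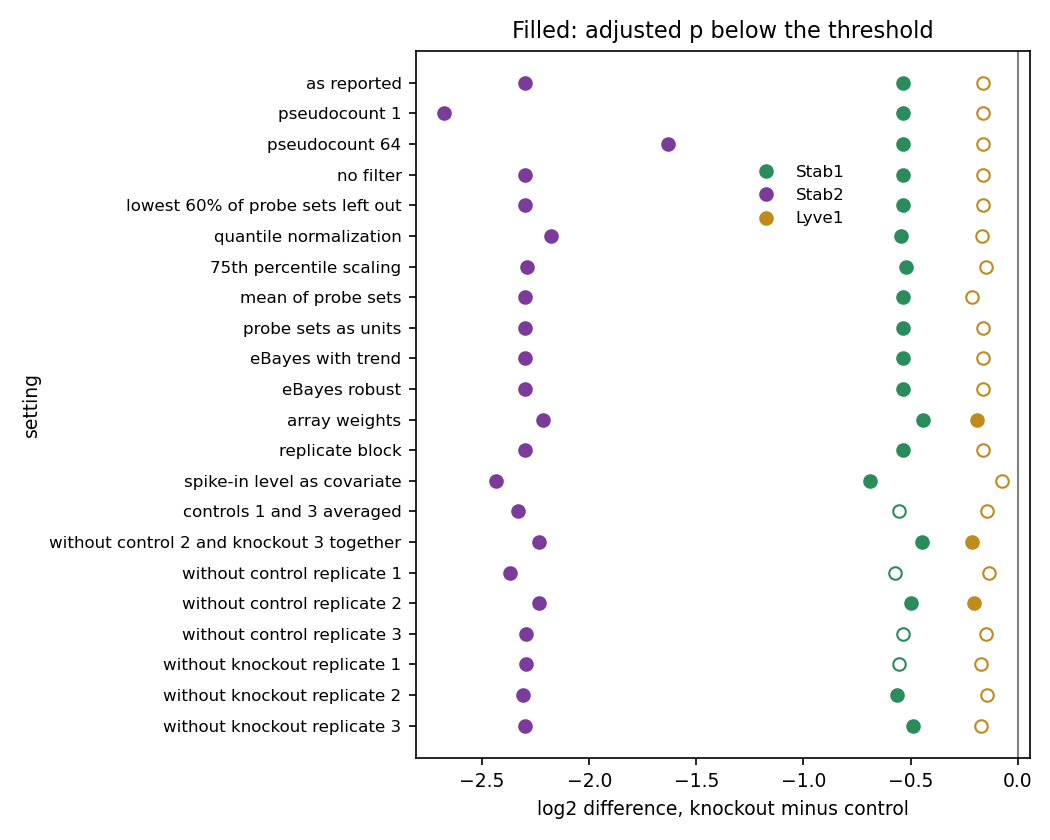
Log2 difference, knockout minus control, of Stab1, Stab2 and Lyve1 (brightest or, where stated, averaged probe sets) under each processing setting, filled where the limma adjusted p was below 0.05. Stab2 is filled in every row, Stab1 is open in 4, and Lyve1 is filled in 3, with all values below 0.

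The 4 genes at the floor have 8 probe sets, whose values ran from 4.08 to 6.06 units over all arrays. Prox1, the regulator of lymphatic fate, read 5.54, 5.56 and 5.63 units in controls and 5.67, 6.06 and 5.61 units in knockouts in its brightest of 3 probe sets. Mmrn1, which binds coagulation factor V, read 5.25, 5.23 and 5.32 units against 5.32, 5.43 and 5.28 units. Pdpn ran from 4.08 to 4.10 units and the brighter Reln probe set from 4.67 to 4.75 units. The groups overlapped in each of these probe sets, and with both groups at the floor no fold is given. Prox1 and Mmrn1 stayed in the test and did not pass (limma adjusted p = 0.645 and 0.871), while Pdpn and Reln were among the probe sets left out for low signal. A probe set at the floor shows that no signal was detected by it, not that the transcript was absent.

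Of 26 other genes of lymphatic growth and identity with a probe set, 9 were at the floor in all arrays, among them Vegfd, Adamts3 and Tbx1. Of the 26, 18 were tested, and 17 of these were over the floor in all arrays of at least 1 group. Among the tested genes 4 fell (22.2%, beside 5.07% of all genes tested), 1 rose (5.56%, beside 8.63%) and 13 did not pass. The median log2 difference was -0.12 beside 0.0071 over all genes. Flt4, the receptor VEGFR3 through which lymphatic vessels grow, read 6280, 6620 and 5888 units in controls and 2689, 3008 and 2318 units in knockouts, and fell by 1.23 ± 0.11 on the log2 scale (SE; limma adjusted p = 0.00891). Its ligand Vegfc read 3381, 3125 and 3521 units in controls and 1385, 1532 and 1368 units in knockouts, and fell by 1.22 ± 0.07 (limma adjusted p = 0.00316). For both genes the knockout arrays were all under the lowest control, as for 12.8% of all genes tested. All further probe sets over the floor (1 for Flt4, 2 for Vegfc) were also called lower.

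Itga9, the integrin chain needed for lymphatic valves, fell by 2.09 ± 0.29 on the log2 scale, from 567 ± 25.5 to 128 ± 57.3 units (SD, n = 3; limma adjusted p = 0.0195). Nr2f2, the nuclear receptor COUP-TFII that partners PROX1 and supports venous identity, fell by 0.43 ± 0.05, from 20319 ± 576 to 15066 ± 789 units (limma adjusted p = 0.0129). Ccbe1, a secreted activator of VEGF-C processing and the 1 gene of the list that rose, had a log2 difference of 0.89 ± 0.19 (limma adjusted p = 0.0466) and is named after its value was seen. Vegfc passed whichever array was left out, whereas Flt4 and Nr2f2 lost theirs without control 1 or control 3 (adjusted p up to 0.0567 and 0.0694), Itga9 without any single control or knockout 1 (up to 0.0923), and Ccbe1 in all cases but without knockout 2 (up to 0.167). Of the further probe sets over the floor, 1 of 2 was called lower for Itga9 (log2 difference -1.80 to -1.19). For Nr2f2 it was 2 of 3 (-1.17 to -0.96), a larger fall than in its brightest probe set. For Ccbe1, 1 of 1 was called higher (1.38). With controls 1 and 3 averaged, Vegfc was the 1 gene of this list that passed (adjusted p = 0.0284).

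Among scavenger and sinusoidal genes the directions were mixed. Of 26 genes with a probe set, 14 were at the floor in all arrays, among them Cd36, Msr1, Marco and the sinusoidal receptors Fcgr2b and Clec4g. Of 16 tested, 2 fell (12.5%, beside 5.07% of all genes tested), 1 rose (6.25%, beside 8.63%) and 13 did not pass. The median log2 difference was 0.0053. Olr1, the endothelial receptor for oxidized LDL, rose by 1.67 ± 0.16 on the log2 scale (SE; limma adjusted p = 0.00953), from 99.5, 69.4 and 109 units in controls to 315, 335 and 323 units in knockouts. Its direction was opposite to that of both stabilins. Cxcl16, a membrane-bound chemokine that also takes up oxidized LDL, fell by 1.24 ± 0.21 (limma adjusted p = 0.0297), and Dab2, an endocytic adaptor, by 0.21 ± 0.03 (limma adjusted p = 0.0297). Clec1b, the platelet receptor for podoplanin, was at 7.15 ± 2.42 units in controls and 24.5 ± 9.37 units in knockouts (SD, n = 3) and did not pass (limma adjusted p = 0.0761). Olr1 lost its call without control 1 or knockout 1 (adjusted p up to 0.0537), Cxcl16 in all cases but without knockout 3 (up to 0.106), and Dab2 without control 1, control 3, knockout 1 or knockout 2 (up to 0.123). With controls 1 and 3 averaged, Olr1 alone of this list passed (adjusted p = 0.0484). The further probe sets over the floor were called lower in 0 of 1 case for Cxcl16 (log2 difference -0.85) and in 1 of 3 for Dab2 (-2.34 to -0.30).

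Hyaluronan, the shared ligand of stabilin-2 and LYVE1, is made by the Has synthases and broken down by hyaluronidases. Has1, Has2 and Has3 were at the floor in all arrays. Of 10 tested genes of hyaluronan turnover, 1 fell (10%, beside 5.07% of all genes tested), 0 rose (beside 8.63%) and 9 did not pass. The median log2 difference was 0.02. The gene that fell was Cemip2, which encodes a cell-surface protein of hyaluronan breakdown. It read 13666, 15517 and 14515 units in controls and 8333, 6982 and 7394 units in knockouts, and fell by 0.94 ± 0.09 on the log2 scale (SE; limma adjusted p = 0.00891), a call that ended without control 3 (0.0573) and with controls 1 and 3 averaged (0.0519). With the spike-in signal as a covariate 0 genes of this list passed. The further Cemip2 probe set over the floor was also called lower. The lysosomal enzyme subunit Hexa (0.16 ± 0.06, limma adjusted p = 0.159), the hyaluronan-binding Habp4 (0.41 ± 0.24, 0.306) and Tnfaip6, at the floor in all arrays, did not pass.

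Most partners of reelin, podoplanin and multimerin were detected although the 3 proteins' own genes were at the floor. Of 18 partners with a probe set, 3 were at the floor in all arrays: Dab1, Emilin1 and F5, the gene of coagulation factor V. Of 15 tested, 2 fell (13.3%, beside 5.07% of all genes tested), 2 rose (13.3%, beside 8.63%) and 11 did not pass. The median log2 difference was -0.14. The reelin receptor gene Vldlr fell by 0.71 ± 0.14 on the log2 scale (SE; limma adjusted p = 0.0389), from 18305, 17881 and 20196 units in controls to 10932, 10058 and 13777 units in knockouts. Fyn, a kinase of reelin signalling and of many other receptors, fell by 0.24 ± 0.05 (limma adjusted p = 0.0407). Mmrn2, the endothelial multimerin, rose by 1.08 ± 0.13 (limma adjusted p = 0.0162), from 4066 ± 493 to 8633 ± 1040 units (SD, n = 3), and its 3 further probe sets were also called higher. Ezr, whose product ezrin links podoplanin and other membrane proteins to actin, rose by 0.77 ± 0.11 (limma adjusted p = 0.0195). Each of these calls ended without control 1, control 3 or knockout 1, and those of Vldlr and Fyn also without control 2 or knockout 2 and that of Ezr without knockout 2, with adjusted p up to 0.145 over the 4 genes. With controls 1 and 3 averaged, 0 genes of this list passed. The 5 further Vldlr probe sets had log2 differences of -2.22 to -1.15, of which 1 was called, and the 1 further Fyn probe set (-0.36) was not called.

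**Figure D4:**
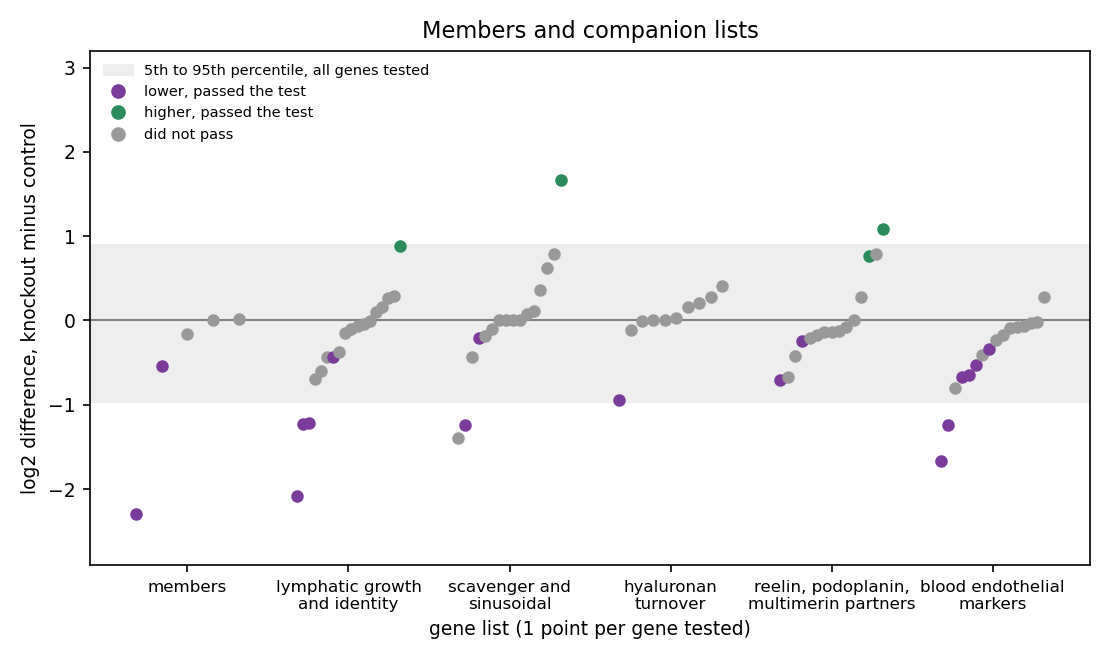
Log2 difference, knockout minus control, of each tested gene of the members, 4 companion lists and the blood endothelial markers, with genes that passed the limma test in purple (lower) or green (higher), and the 5th to 95th percentile of all genes tested shaded. Stab2 at -2.30 and Itga9 at -2.09 are the lowest points of their lists, and Olr1 at 1.67 is the highest point shown.

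Stab1, Lyve1 and some scavenger genes are also expressed by macrophages, so a list of 16 macrophage markers was read beside them. Its summed intensity was 3990 to 4572 units in controls and 902 to 1236 units in knockouts, so that it moved in the direction of the stabilins. That sum came mainly from Cd68, a lysosomal protein that other cells carry as well, which fell by 2.01 ± 0.17 on the log2 scale (SE; limma adjusted p = 0.00762), from 3834, 4252 and 3688 units to 1032, 1126 and 756 units. Cd14, the endotoxin co-receptor, fell by 2.09 ± 0.26 (limma adjusted p = 0.0162), from 186, 231 and 132 units to 23.9, 42.7 and 24.7 units. Cd68 lost its call without control 1 or control 3 (limma adjusted p up to 0.0519) and Cd14 without control 1, control 3 or knockout 1 (up to 0.0822). Mrc1, the mannose receptor of macrophages and sinusoidal endothelium, varied widely, at 163, 27.6 and 109 units in controls and 16.6, 5.51 and 60.4 units in knockouts, and did not pass (limma adjusted p = 0.279). The other 13 markers, including Ptprc, Adgre1, Csf1r, Itgam, Lyz2 and C1qa, were at the floor in all 6 arrays.

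**Figure D5:**
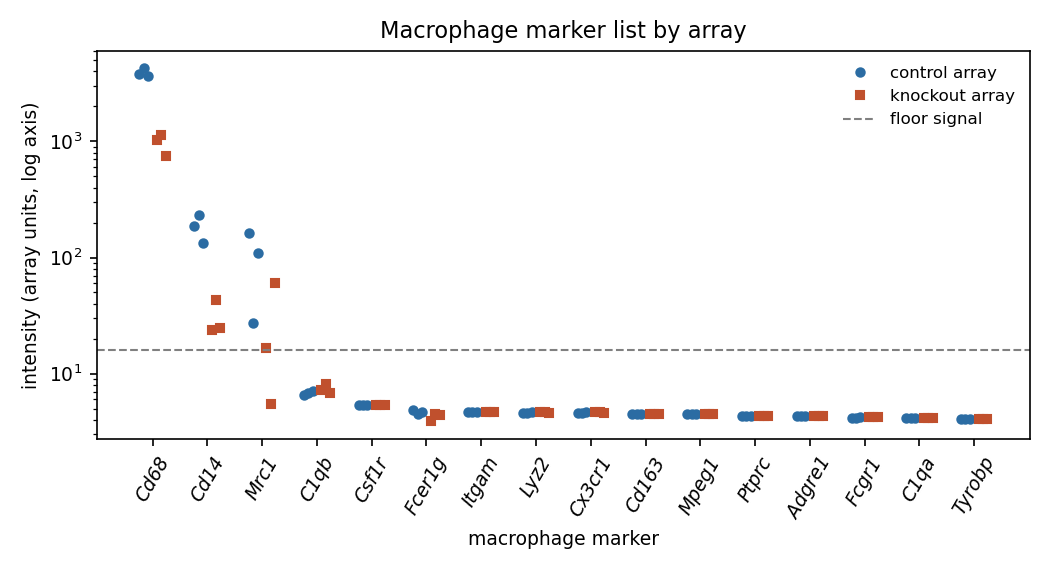
Intensity (log axis, array units) of 16 macrophage markers in the control arrays (circles) and knockout arrays (squares), with the floor signal of 16 as a dashed line. Cd68 and Cd14 lie over the line and are lower in every knockout array, Mrc1 overlaps between the groups, and the other 13 lie under the line.

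The arrays were checked against blood endothelial markers in the same way. All 16 were over the floor in at least some arrays, with Emcn and Egfl7 the brightest, and 6 fell, 0 rose and 10 did not pass. The 6 that fell were Pecam1, Flt1, Tek, Tie1, Nos3 and Erg, 37.5% of the list beside 5.07% of all genes tested. Flt1 passed whichever array was left out, Pecam1 and Tie1 in 0 of 6 such fits, Erg in 2, and Tek and Nos3 in 3. With controls 1 and 3 averaged, Flt1 alone of these 6 passed (limma adjusted p = 0.0357). The summed intensity was 197262 to 212290 units in controls and 162586 to 179395 units in knockouts. In cultures read as a whole, fewer cells of a type and less RNA per cell cannot be told apart, and the part that this or the macrophage list has in the lower stabilin signal was not tested.

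Genes whose pattern over the 6 arrays was most like that of a member were found by Pearson correlation of log2 values among 5784 genes that varied, as a description with no test. The 6 arrays fall into the same 2 groups for every gene. For Stab2 they were Col5a1 (r = 0.999), Pttg1ip (0.999) and Limch1 (0.999). For Stab1 they were Serf1 (0.999), Mxd1 (0.998) and Plet1 (0.997), and for Lyve1 they were Heg1 (0.987), Acer3 (0.982) and Sgcb (0.981). All 9 were lower in the knockout arrays, with log2 differences from -4.11 for Col5a1 to -0.45 for Acer3. That direction follows from the choice, since each was picked for a high correlation with a gene that was lower there.

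The nearest tested genes along the chromosome, looked up after the values of the members were seen, did not pass on either side of the 2 stabilins. Beside Stab1 on chromosome 14 these were Nt5dc2 (log2 difference 0.69 ± 0.23 SE, limma adjusted p = 0.118) and Nisch (0.04 ± 0.06, 0.695). Beside Stab2 on chromosome 10 they were Nt5dc3 (0.10 ± 0.10, 0.531) and Igf1os, which was at the floor in both groups.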

How the data were processed

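The authors deposited a table of linear intensities with 45101 probe sets in rows and 6 arrays in columns. Total RNA was amplified and labelled with biotin, per the labels' protocols, and MAS5 and GCRMA are named in the submitters' processing notes, without roles or versions. Array quantiles were nearly equal, so the values were used without further normalization. Such processing draws dim probe sets to a floor with very little spread.

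Of the probe sets, 34958 had 1 gene in the platform annotation, 932 had several and 9211 had none, and 34754 matched a current gene by gene number. Control probe sets (64) and the 40% of the others with the lowest mean were left out, leaving 27022 probe sets and 12277 genes, each by its brightest probe set. The values were taken as log2(intensity + 16) and compared, two-sided, with limma 3.58.1 in R 4.3.3, with Benjamini-Hochberg adjustment over all genes. A prior check on simulated data drew noise independently for each gene and array. It therefore does not cover deviations that many genes share within an array, as seen here. A probe set under 16 units in all 6 arrays is called at the floor.

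The members and lists were chosen with earlier results of these data known. Named were the members, up to 4 genes of each companion list with the smallest p, the 2 brightest of each marker list, and the 3 genes most like each detected member (SD over arrays of at least 0.25); others are examples named after their values were seen. Alternatives covered the pseudocount, filter, scaling, probe set choice, eBayes settings, array weights, the replicate number as a block, a spike-in covariate (mean of bioB and bioC) and arrays left out. Figures were drawn with matplotlib 3.10.9.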

Additional observations from a re-analysis of the deposited data

How the results depend on the processing

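Over 21 other settings, Stab2 stayed lower and past the threshold in 21 (log2 difference -2.68 to -1.63, limma adjusted p up to 0.0165). Stab1 stayed lower in all 21 and past it in 17. Lyve1 stayed lower in all 21 and passed in 3: with array weights (-0.19, adjusted p = 0.000703), without control 2 and knockout 3 together (-0.21, 0.0335) and without control 2. The number of members called was 2 as reported, 3 with array weights, 3 when control 2 and knockout 3 were both left out, 1 with controls 1 and 3 averaged, 1 to 3 when single arrays were left out, and 2 in the other settings. The number of all genes called moved far more: 883 without a filter, 8541 with array weights (an estimate that stopped before it converged), 444 with the spike-in covariate, 194 with controls 1 and 3 averaged, 4644 without control 2 and knockout 3 together, and 207 (without control 1) to 3008 (without knockout 3) with each array left out. The cause was not tested. The share of calls that were higher was 63% as reported and 36.9% with the spike-in covariate.

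The replicate number as a block gave 2995 genes and the same 2 members (Stab1 adjusted p = 0.0253, Stab2 0.0126). Deviations from the group means of same-numbered arrays correlated at -0.47, 0.84 and 0.80, and control 1 correlated best with knockout 3 (0.76). Deviations within a group of 3 depend on each other, and controls 1 and 3 were close. These values therefore do not decide if the numbers pair the samples.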

Other observations

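Markers of other cells of the lung were read beside the lymphatic genes, since Pdpn also marks alveolar epithelium and fibroblasts. All 13 fibroblast and mesothelial markers were at the floor in all arrays, including Col1a1, Col1a2, Pdgfra, Dcn and Msln. Of 12 alveolar epithelial markers 9 were at the floor, among them Epcam, Cdh1, Sftpc and Aqp5. Hopx gave 1581 ± 310 units in controls and 793 ± 176 in knockouts (SD, n = 3; limma adjusted p = 0.0539), and Ager, the receptor for advanced glycation end products, fell from 54.4 ± 14.8 to 21.4 ± 1.12 units (limma adjusted p = 0.0322), a call that held in 1 of 6 fits with an array left out. Rtkn2 went the other way, from 10.3 ± 2.68 units in controls to 43.3 ± 21.9 in knockouts, and did not pass (limma adjusted p = 0.0939). Of 8 platelet markers, 6 were at the floor. Pf4, a platelet chemokine, gave 3638, 3907 and 3529 units in controls and 5159, 6312 and 4630 units in knockouts and did not pass (limma adjusted p = 0.0623), and Gp9 gave 20.8 ± 0.151 and 23.1 ± 7.05 units.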
